A study of Mus musculus with 4 samples.

Results

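The amino acid transporter genes Slc3a2, Slc7a5, Slc7a1, Slc7a3, Slc1a4, Slc1a5, Slc6a9, Slc38a2, Slc38a1 and Slc43a1 were examined for binding of the transcription factor ATF4 in and around them. These 10 genes, of 21887 coding genes in the RefSeq annotation, were chosen by the ATF4 peaks already seen near some of them. Their peak counts and fold values are therefore descriptions, and no test was made on them. For each gene the peaks with a summit inside it or within 50 kb were taken, 3 of 93 peaks in control neurons and 11 of 952 in neurons with Opa1 knocked down.

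The assay was ChIP-seq, in which DNA bound by ATF4 is immunoprecipitated and sequenced, on primary cortical neurons from embryos of CD1 mice (E14.5 to E15). All cultures had glutamine at 0.6 mM and received the mitotic inhibitor cytosine arabinoside at 2 µM. They were transduced with lentivirus on day 6 and were harvested on day 11. Control neurons (genotype WT) carried the hairpin shControl. Knock-down neurons carried the hairpin shOpa1 against Opa1, a GTPase that fuses the inner mitochondrial membrane, and the series title names the condition as mitochondrial stress. Each condition had 1 ATF4 library, so differences between the conditions have no replicate check. The knock-down itself and the cell type cannot be checked from peak lists.

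Amino acid carriers of the solute carrier family move amino acids across the plasma membrane, and several are known ATF4 targets. When translation initiation factor eIF2 is phosphorylated, ATF4 protein is made and, with a C/EBP partner, binds a composite C/EBP-ATF response element in the genes that supply amino acids and charge tRNAs. In neurons the same carriers feed protein synthesis, and some of them set the level of transmitter amino acids such as glycine.

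The bases that the promoter annotation gives under these peaks are shown first, since 2 of the stretches, of Slc1a4 and Slc7a11, hold the composite element close to a summit; the other 3 cover only an edge of their peak. The element was searched as TGATGNAAN on both strands, where N is any base, and a match is in capitals. Each line reads 5′ to 3′ along the strand of its gene (GRCm38.p6, RefSeq) and ends at most 30 bases past the annotated start site. The first is the Slc1a4 promoter under a knock-down peak (chr11:20332684-20332963, minus strand), and the next is that of Slc7a11 (chr3:50443584-50443863, minus strand), the light chain of the cystine antiporter and a carrier outside the 10. The other 3 hold no match: Slc7a1 (chr5:148399875-148399997, minus strand), Slc6a9 (chr4:117835131-117835287, plus strand), and the edge of the distal Slc7a5 peak, which reaches into the promoter window of the lncRNA gene Gm26812 (chr8:121851615-121851677, plus strand).
Slc1a4: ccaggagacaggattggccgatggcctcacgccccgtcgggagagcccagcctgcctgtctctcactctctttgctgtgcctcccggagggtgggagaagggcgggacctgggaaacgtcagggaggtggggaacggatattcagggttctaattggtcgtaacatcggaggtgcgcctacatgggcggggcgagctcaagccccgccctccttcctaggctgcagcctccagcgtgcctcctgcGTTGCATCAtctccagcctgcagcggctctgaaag
Slc7a11: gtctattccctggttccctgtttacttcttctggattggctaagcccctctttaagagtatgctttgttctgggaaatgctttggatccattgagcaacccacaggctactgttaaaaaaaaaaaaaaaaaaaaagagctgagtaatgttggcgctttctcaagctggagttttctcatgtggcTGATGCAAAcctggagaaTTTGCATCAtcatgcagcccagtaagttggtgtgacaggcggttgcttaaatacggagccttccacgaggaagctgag
Slc7a1: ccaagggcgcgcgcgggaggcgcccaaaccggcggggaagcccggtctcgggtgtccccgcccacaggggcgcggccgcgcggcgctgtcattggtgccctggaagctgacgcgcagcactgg
Slc6a9: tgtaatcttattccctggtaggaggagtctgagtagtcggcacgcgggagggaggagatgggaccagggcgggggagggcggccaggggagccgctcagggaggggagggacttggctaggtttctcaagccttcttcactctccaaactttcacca
Gm26812: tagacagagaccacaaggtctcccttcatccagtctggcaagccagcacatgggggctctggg

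The Slc1a4 promoter held a single match, GTTGCATCA, which on the other strand reads TGATGCAAC. It ran from 20332710 to 20332718 across the annotated start site at 20332713, with its centre 29 bp from the peak summit. The Slc7a11 promoter held 2 matches, TGATGCAAA and TTTGCATCA, the nearer of them 17 bp from the summit of the knock-down peak. Slc1a4 was the only 1 of the 6 transporters with a promoter window whose window held the motif, over 9 windows in all.

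Across the annotation 3.95% of 32851 promoter windows of the same length held TGATGNAAN. The share was 30.3% of the 99 windows overlapped by a knock-down peak, and 61.0% of the 41 windows that held a knock-down summit. Of the 19 windows overlapped by a control peak, 10 held it (52.6%). In the 25 windows with both a summit and the motif, the nearest motif centre lay a median of 41 bp from the summit (range 1 to 149 bp). Both had to lie in the same window and the nearest match was taken, so the window length bounds these distances. No expected distance was worked out. The windows of Slc7a1 and Slc6a9 reached only to within 324 and 136 bp of their summits, and that of Gm26812 to within 432 bp of the distal Slc7a5 summit. The bases at those summits were not used here. The deposited summit is the centre of the interval in all of these peaks except the distal Slc38a2 peak, so these are distances to a peak centre. A match is a description of the letters and not a measured binding site.

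With windows of 50 kb, 3 of the 10 transporters had a peak in the control list (Slc3a2, Slc7a5 and Slc7a1), where 0.927% of all coding genes did. In the knock-down list 7 had one, where 6.23% of all coding genes did: the same 3 genes and Slc7a3, Slc1a4, Slc6a9 and Slc38a2. Among the top 93 knock-down peaks, as many as the control list holds, the count was 3. The share of all coding genes for those 93 peaks is not given here, so that count stands without a background. The shares of 0.927% and 6.23% are printed as the background only, since these values chose the genes. All 3 control peaks overlapped a knock-down peak, as did 86.0% of all control peaks, and 3 of the 11 knock-down peaks overlapped a control peak, against 8.4% of all knock-down peaks. The other 8 knock-down peaks were in that list alone. The control list went down to a fold of 3.71 and 15 tags, and tag numbers at sites without a control call were not analysed here, so such a site is not shown to be unbound.

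**Figure D1:**
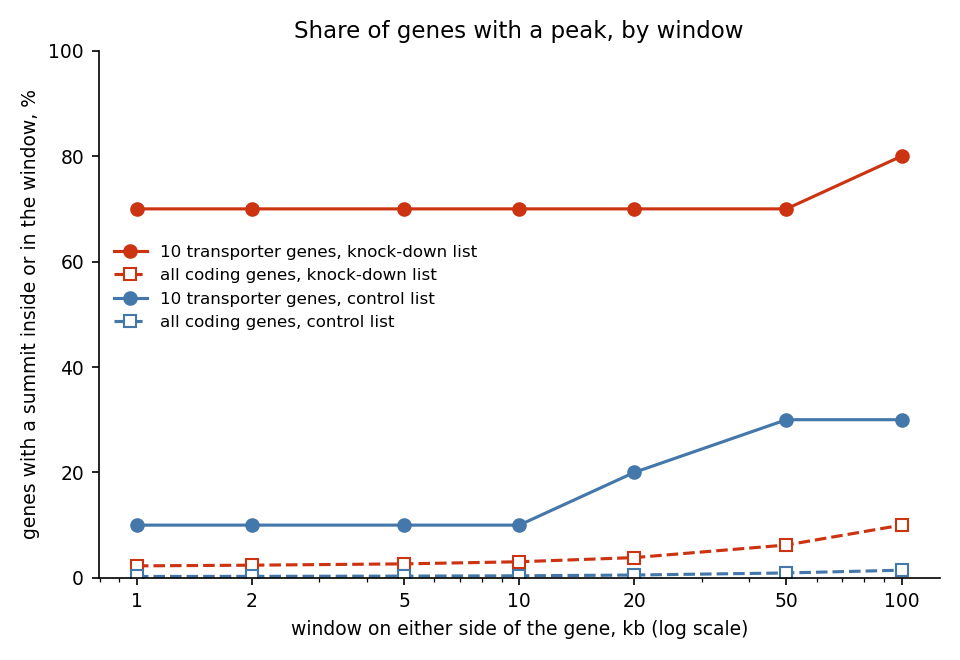
Share of genes (percent) with an ATF4 summit inside the gene or in a window of 1 to 100 kb on either side (log scale), for the 10 transporters (filled points) and all coding genes (open squares), in the control list (blue) and the knock-down list (red). In the knock-down list 7 transporters are reached already at 1 kb, and in the control list 1 transporter up to 10 kb and 3 at 50 kb.

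The distance at which a gene counted differed between the lists. In the control list 1 gene, Slc3a2, had a summit inside it, and within 5 kb it was still 1 gene (0.324% of coding genes). Slc7a1 was reached at 19377 bp and Slc7a5 at 29949 bp. In the knock-down list all 7 genes had a summit inside the gene, also the number within 5 kb (2.65% of coding genes), and 4 further peaks lay outside. The distal control peaks of Slc7a5 and Slc7a1 were thus joined in the knock-down list by peaks inside those genes.

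Slc3a2 encodes the heavy chain (4F2hc, CD98) that carries several light chains, among them the Slc7a5 product, to the plasma membrane. Slc3a2 spans 8706882 to 8723369 on chromosome 19. Its 1 promoter window puts a start site inside that span, at 8713897 on the minus strand, so the gene also extends upstream of it. The peak lay inside the gene, 873 bp past that start site (knock-down peak at chr19:8712631-8713416, mm10). In control neurons it reached a fold of 7.53, from 21 tags (exact Poisson 95% interval 13.0 to 32.1). After knock-down it reached a fold of 38.2, from 116 tags (95.9 to 139). In the control list it stood at the median fold, and in the knock-down list its fold was the third highest of 952. The summits of both lists were 3 bp apart. Slc3a2 was the nearest coding gene, and 5 other coding genes lay within 50 kb: Chrm1, Wdr74, 1700092M07Rik, Stx5a and Nxf1.

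Slc7a5 encodes LAT1, the light chain of the exchanger for large neutral amino acids such as leucine. It had 3 knock-down peaks within 50 kb, a number reached by 0.0548% of coding genes (12 of 21887). Slc7a5 spans 26541 bp. Of the other 11, Cntn4, Dlg2, Tenm4, Opcml, Pde4d and Nrg3 are between 739850 and 1973059 bp long, and Nfib, Slc24a2 and Ccdc192 between 197326 and 247529 bp. Etf1 and Hspa9, both on chromosome 18, were the other genes under 30 kb.

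The first Slc7a5 site was distal, 29963 bp outside the gene in the knock-down list and 29949 bp in the control list (knock-down peak at chr8:121850688-121851677, mm10). It had a fold of 16.9 and 70 tags (54.6 to 88.4) in control neurons, and of 52.1 and 214 tags (186 to 245) after knock-down. Its fold was the highest of the knock-down list and, level with 1 other peak, of the control list. The summit lay inside the span of the lncRNA gene Gm26812, but before a start site annotated for it at 121851865 on the plus strand. The nearest coding gene was Gm42048 at 7281 bp, and Klhdc4 was also within 50 kb. The site is thus near Slc7a5 by the window alone, and no target was measured. A smaller peak 32482 bp from the gene, with a summit 4762 bp from Gm42048, was in the knock-down list alone (fold 7.47, 36 tags).

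The Slc7a5 site inside the gene was in the knock-down list alone (chr8:121897996-121898961, mm10), 9207 bp from the nearer gene end. It had a fold of 22.0 and 111 tags (91.3 to 134). Among the 872 knock-down peaks without a control partner its fold ranked 3, where the median was 7.65 and the maximum 23.9. That fold was above the highest in the control list, 16.9, as were those of 15 of the 872 peaks in all. Whether the site lies in an exon or an intron was not determined, since the gene table used gives no exons.

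**Figure D2:**
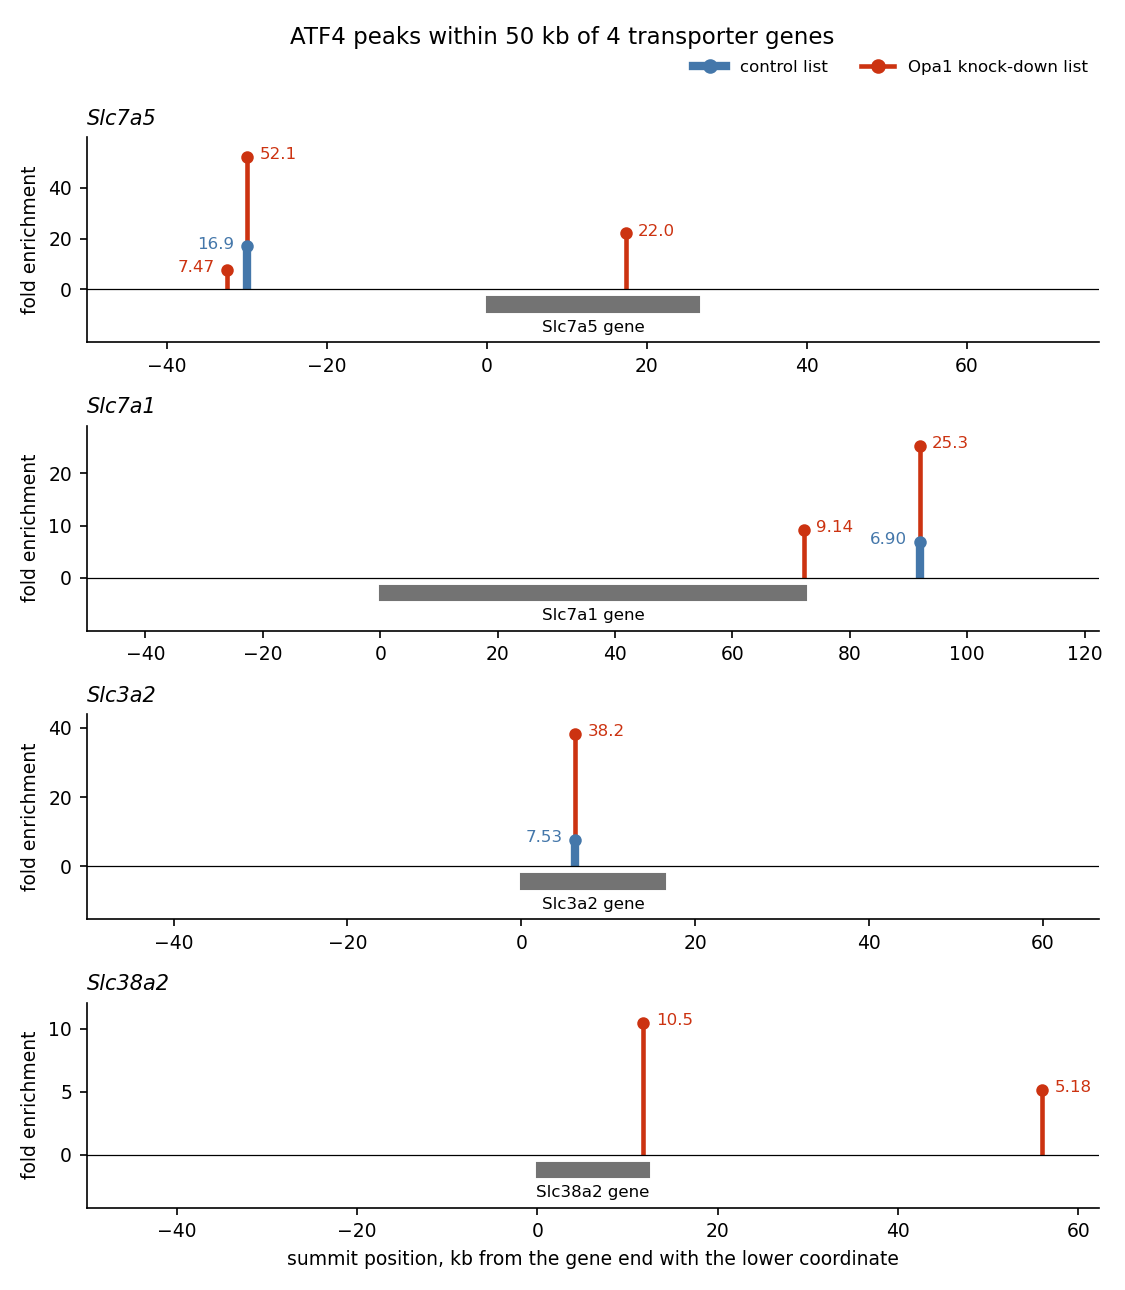
Position and fold enrichment of every ATF4 peak within 50 kb of Slc7a5, Slc7a1, Slc3a2 and Slc38a2, with the horizontal axis in kb from the gene end of lower coordinate and the gene as a grey bar. Blue stems are control peaks and red stems knock-down peaks, and the distal Slc7a5 and Slc7a1 sites and the Slc3a2 site carry both.

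Slc7a1 and Slc7a3 encode the cationic amino acid transporters CAT1 and CAT3, which take up arginine and lysine. The distal Slc7a1 site lay upstream of the gene, with its summit 19402 bp before the start site at 148399904 (knock-down peak at chr5:148418900-148419711, mm10), and Slc7a1 was the only coding gene within 50 kb. The control list gave it a fold of 6.9 and 21 tags (13.0 to 32.1), below the median fold of that list. The knock-down list gave it 25.3 and 94 tags (76.0 to 115), rank 15 by fold. A further Slc7a1 peak, 373 bp past the start site, was in the knock-down list alone, with a fold of 9.14 and 69 tags (53.7 to 87.3). At Slc7a1 the distal site thus had the higher fold, as at Slc7a5.

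The Slc7a3 peak lay inside the gene on the X chromosome, 5318 bp from the nearer end, and was in the knock-down list alone. Its fold was 5.74 with 19 tags (11.4 to 29.7), which is below the knock-down median fold of 8.13. It was 1 of 9 knock-down peaks on that chromosome, whose folds ran from 4.83 to 10.3, and ranked 6 among them. The control list held 0 peaks on the X chromosome.

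Slc1a4 and Slc1a5 encode the related neutral amino acid exchangers ASCT1 and ASCT2. The Slc1a4 peak was in the knock-down list alone (chr11:20332290-20333078, mm10), with its summit 28 bp past the start site, a fold of 11.9 and 49 tags (36.3 to 64.8). Among the transporters with an annotated start site it was the closest peak to one, and it is the 1 transporter peak whose printed bases hold the motif. Slc1a5, its nearest relative here, had no peak within 50 kb in either list, and the closest knock-down summit was 189872 bp away.

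Slc6a9 encodes GlyT1, the glycine transporter that clears glycine around excitatory and inhibitory synapses. Its knock-down peak, with the summit 185 bp past the start site, had a fold of 6.69 and 30 tags (20.2 to 42.8). That fold is below the median of the list, and 3 other coding genes (Ccdc24, B4galt2 and Atp6v0b) lay within 50 kb. The control list had no peak there.

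Slc38a2 and Slc38a1 encode the sodium-coupled neutral amino acid transporters SNAT2 and SNAT1, which take up glutamine and alanine, and are neighbours on chromosome 15. Slc38a2 had 2 peaks in the knock-down list alone. The first lay inside the gene 579 bp past its start site, with a fold of 10.5 and 39 tags (27.7 to 53.3). The second lay 43656 bp upstream, with a fold of 5.18 and 27 tags (17.8 to 39.3), and carries the smaller form of score, so its rank of 893 in the deposited order is on another scale. By fold it was also low, at rank 892 of 952.

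That distal Slc38a2 peak was the member closest to the 50 kb limit from inside. The closest from outside belonged to Slc38a1, whose nearest summit, 55711 bp away, was the peak inside Slc38a2. Slc38a1 therefore counted as having none. Slc43a1, which encodes the facilitative transporter LAT3 for branched-chain amino acids and phenylalanine, had no peak either, and its closest knock-down summit was 2330115 bp away.

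**Figure D3:**
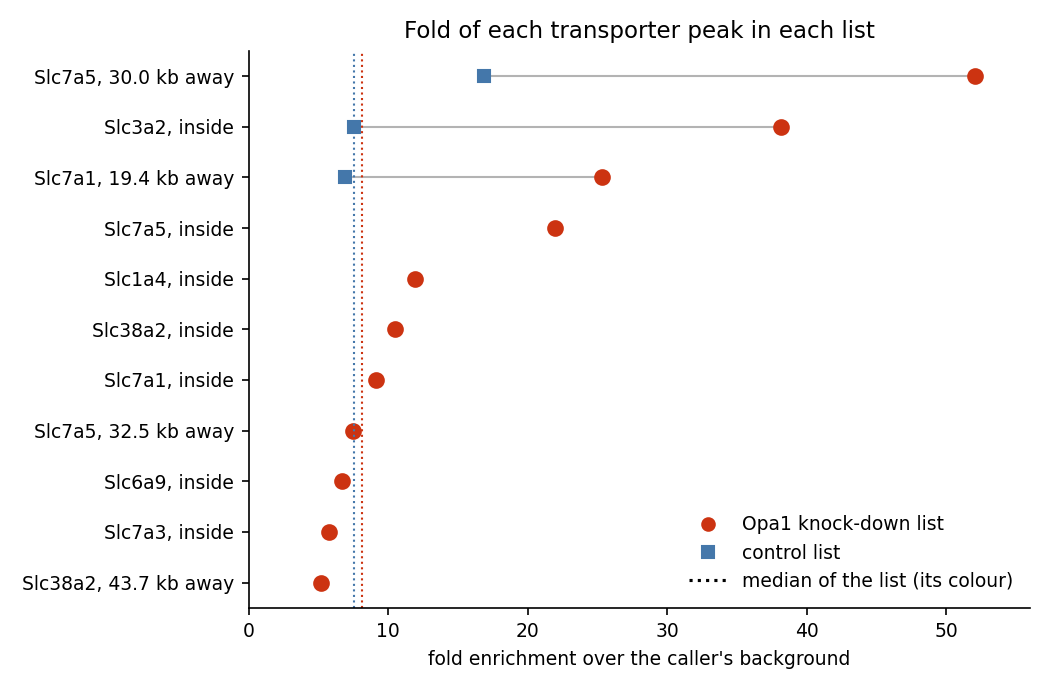
Fold enrichment over the caller's background (horizontal axis) of each of the 11 transporter peaks, in the knock-down list (red circles) and, where shared, the control list (blue squares), with dotted lines at the list medians of 8.13 and 7.53. The 3 shared sites have the 3 highest knock-down folds, and the peak inside Slc7a5 is the highest of those in the knock-down list alone. Shared peaks also had the higher median fold over the whole knock-down list, 17.6 against 7.65.

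The 11 knock-down peaks had folds from 5.18 to 52.1 with a median of 10.5, against a median of 8.13 over the whole list, and 6 of them reached a fold of 10 (285 of 952 in the list). Over the whole knock-down list the 80 peaks shared with the control list had a median fold of 17.6, and the 872 others 7.65. Of the transporter peaks 3 of 11 were shared, against 8.4% of the list, and the medians of 10.5 and 8.13 were not adjusted for this. The 3 control peaks had folds of 6.9, 7.53 and 16.9, against a list median of 7.53. Among the 8 peaks in the knock-down list alone, tags ran from 19 at Slc7a3 to 111 inside Slc7a5. The sources used here give no total read numbers. All peaks together held 2424 tags in control neurons and 33318 after knock-down, and tags were not scaled for depth.

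**Figure D4:**
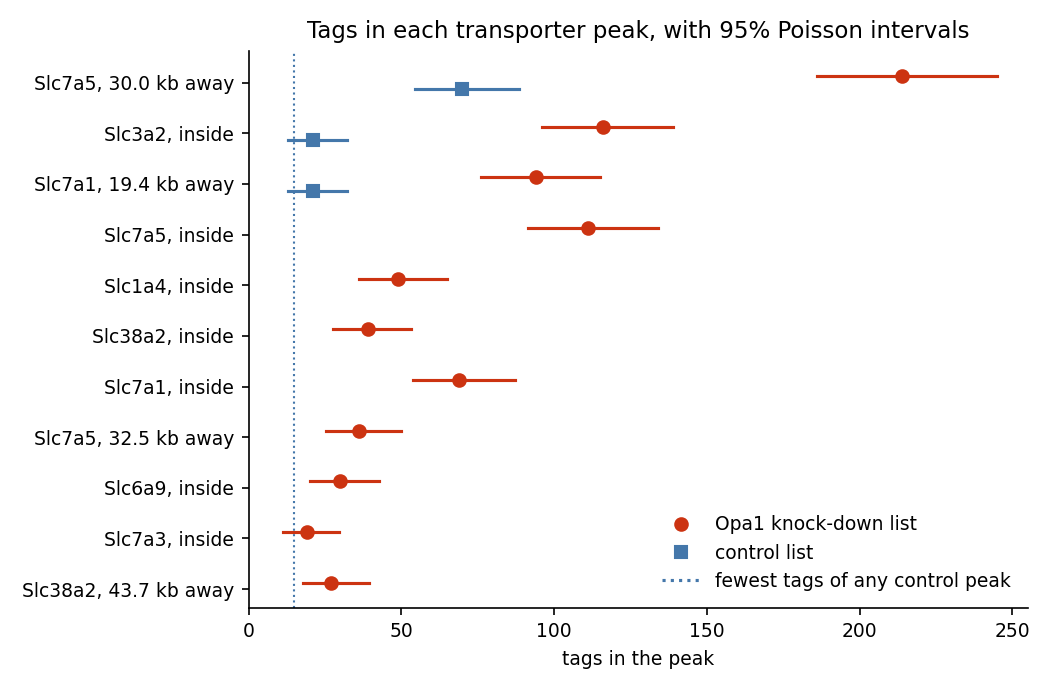
Tags in each transporter peak (horizontal axis), with bars for exact 95% Poisson intervals that cover counting error only, in the knock-down list (red circles) and the control list (blue squares); the dotted line is the lowest tag number of any control peak, 15. At the 3 shared sites the intervals of both lists do not overlap, but the tags are not scaled for sequencing depth and no difference was tested.

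Folds at the 3 sites present in both lists were set beside those of the other shared sites. The ratio of the knock-down fold to the control fold was 5.08 at Slc3a2, 3.67 at the distal Slc7a1 site and 3.08 at the distal Slc7a5 site. Over all 80 shared sites the median ratio was 2.26, and 93.8% of them had the higher fold after knock-down. The Slc3a2 and Slc7a1 ratios were the first and second highest of the 80, and the Slc7a5 ratio ranked 10. The next below Slc7a1 was a site inside Mbd6, at 3.43, named after its value was seen. The folds come from separate calls of single libraries with unknown control libraries, so the ratios describe the lists and are not tested changes in binding.

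The tags of these sites gave ratios of 5.52 at Slc3a2 (95% exact interval 3.45 to 9.26), 4.48 at Slc7a1 (2.77 to 7.57) and 3.06 at Slc7a5 (2.32 to 4.06), where the median over the 80 sites was 2.75. Peaks were also wider after knock-down, 786 against 460 bp at Slc3a2, 812 against 414 bp at Slc7a1 and 990 against 688 bp at Slc7a5. Per kb of peak the tag ratios were 3.23, 2.28 and 2.12 in that order of genes, with a median of 1.53 over all shared sites. All 3 sites were above the median of the shared sites by each of these measures, which come from the same calls and are not independent. The sites were chosen with earlier results of these lists known. Their intervals cover counting error only and are no test against that median. The part of depth and peak calling in these ratios was not tested.

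**Figure D5:**
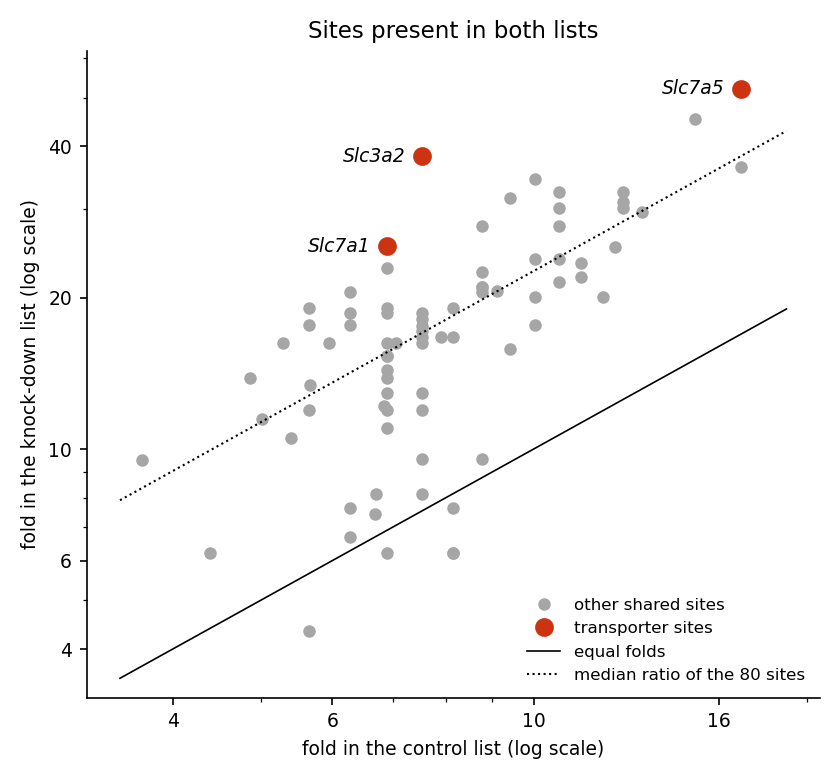
Fold in the knock-down list against fold in the control list (both log scales) for the 80 shared sites, with the 3 transporter sites in red; the solid line marks equal folds and the dotted line the median ratio of 2.26. Slc3a2 and Slc7a1 lie highest above the dotted line, and Slc7a5 has the highest fold in the knock-down list.

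The distal sites were compared with the other shared sites that lay over 5 kb outside every coding gene, 27 for each. Likeness was the summed absolute log2 difference of the control and the knock-down fold, over these 2 lists. Closest to the Slc7a5 site were those with Creb3l1 (folds 13.2 and 29.6, difference 1.18), Arntl (10.7 and 32.5, 1.35) and Lcorl (10.7 and 23.9, 1.79) as the nearest coding gene. Closest to the Slc7a1 site were those with Serpinh1 (6.9 and 22.9, 0.14), St3gal1 (6.27 and 20.6, 0.44) and Tle4 (6.9 and 18.6, 0.44) as the nearest coding gene, at distances of 7092, 143441 and 196383 bp. The Serpinh1 site was the closest in fold of all 6, and no candidate came within 1 of the Slc7a5 site on this measure. Shared sites inside or within 5 kb of a coding gene were not candidates. Of those, the sites with Chac1 (15.05 and 45.41), Tmx3 (16.94 and 36.33) and Herpud1 (12.54 and 32.51) as the nearest coding gene had folds closer to the Slc7a5 site than the Creb3l1 site. The site with Cpne8 (6.9 and 19.12) as the nearest coding gene was closer to the Slc7a1 site than those of St3gal1 and Tle4. Such sites that were not candidates were named after their values were seen.

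The rest of the carrier family was taken from a list of 44 other plasma membrane and vesicular amino acid carriers. In the control list 1 of 44 had a peak inside or within 50 kb (2.27%), and in the knock-down list 2 of 44 (4.55%), beside the 0.927% and 6.23% of all coding genes. In the knock-down list the order of the shares depended on the window, with 2 of 44 also at 5 kb, where 2.65% of all coding genes had a peak, and 5 of 44 at 100 kb, where 10% did. At 50 kb they were Slc7a11 in both lists and Slc1a7, which encodes the glutamate transporter EAAT5, in the knock-down list alone (fold 10.5, 33 tags, 2908 bp past its start site). The Slc7a11 promoter peak had a fold of 7.53 from 21 tags in control neurons and of 17.6 from 61 tags after knock-down, and a second peak inside the gene, in the knock-down list alone, had a fold of 7.17. Among the 6 light chains that pair with the Slc3a2 product (Slc7a5, Slc7a6, Slc7a7, Slc7a8, Slc7a10 and Slc7a11), a group chosen after the values were seen, Slc7a5 and Slc7a11 had a peak in each list and the other 4 had none.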

How the data were processed

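ATF4 ChIP-seq peak lists of 2 libraries were used, 1 from control and 1 from Opa1 knock-down neurons, each tied to its library by the hairpin in its name. IgG and input were left out, as their peaks or reads were not analysed here. The authors deposited, for each peak, its position, rank, length and summit, with a p-value score, the fold over background as the caller set it, and the number of tags. MACS2, deepTools and MultiQC and the build mm10 were named, per the submitters' processing notes. Not given in the sources used here are the depth, the aligner, the treatment of duplicates, and the thresholds and control library of the calls.

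Starts and ends were read as 1-based, since length equalled end minus start plus 1 in 84 of 93 control and 886 of 952 knock-down peaks. In those peaks the deposited summit lay within 1 bp of the middle of the interval, so it is the centre of the peak. The other 9 and 66 peaks carry a shorter length and a smaller score, and their summits lay up to 60.5 and 85.5 bp from the middle.

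Gene ends came from the RefSeq table of GRCm38.p6, whose coordinates are those of mm10, and start sites and sequences from RefSeq promoter windows of that build (250 bases before to 50 after a start). All 10 transporters and all 44 other carriers matched by symbol, and 6 transporters had a promoter window. The gene table gives neither strand nor exons. A gene was counted where a summit lay inside it or within 50 kb, over 21887 coding genes for the background, and peaks of both lists were called shared where they overlapped by at least 1 bp. Tags have exact Poisson intervals at 95% and tag ratios exact intervals from the binomial share of the pooled tags; both cover counting error only.

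The transporters, the list of other carriers and the tests were chosen with earlier results of these data known. Named were the 10 transporters, other carriers with a peak, the nearest coding genes, and the 3 shared sites outside coding genes closest in both folds to the distal Slc7a5 and Slc7a1 sites. Other genes were named after their values were seen. Alternatives covered the window, the peaks entered, the overlap rule, the gene set and the motif. The steps were tested on simulated peaks placed near coding genes that stand far from all other coding genes. Among 21887 genes, 100 of 100 with a planted peak within 50 kb were recovered with 0 others. The same window rule placed and counted those peaks, so this checks the code alone. It does not address peaks where coding genes are crowded. Scripts ran under Python 3.11.15 with scipy 1.17.1, numpy 2.4.6, matplotlib 3.10.9 and pandas 2.3.3.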

Additional observations from a re-analysis of the deposited data

How the results depend on the processing

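Of 41 alternative values, 23 were classed as not moved, which for a count means within 1.5 times the main count, for a share of genes within its 95% Clopper-Pearson interval, and for a site ratio within the exact interval of its tag ratio. The settings chosen after the data were seen were a summit inside the gene alone, and as many top knock-down peaks as the control list holds. The control count of 3 transporters became 1 with windows of 5 and 10 kb, inside the gene alone, in the higher-scoring part of the list and at a fold of at least 10; fewer peaks or a narrower window entered in each. It became 2 where the transporter had to be the nearest coding gene. The knock-down count of 7 became 3 (Slc3a2, Slc7a5 and Slc7a1) with the top 93 peaks, and lay between 5 and 8 in all other settings. For the settings that change the peaks entered, no share of all coding genes is given here, so their counts stand without a background. The 3 shared transporter peaks became 1 in the higher-scoring parts of both lists. The knock-down to control ratio was 3.23 at Slc3a2, 2.12 at Slc7a5 and 2.28 at Slc7a1 by tags per kb of peak; the peaks were wider after knock-down. The share of coding genes with a peak was 0.324%, 0.384% and 1.45% in the control list with windows of 5, 10 and 100 kb, and 2.65%, 3.05% and 10% in the knock-down list, where it was 5.84% with lncRNA genes added. With a window of 100 kb 5 of the 44 other carriers had a knock-down peak. A comparison by rank within each list was not run, since ranks from lists of different lengths show no change. No paired analysis was possible because only 1 library stands for a condition. Read depth is not known, which limits what the absence of a control call shows.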
